A study of Schizosaccharomyces pombe with 12 samples.

Results

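The 6 non-coding RNAs of the fission yeast Schizosaccharomyces pombe described here are the ones that differed most between a strain lacking Med20 and wild type. They are SPNCRNA.1273, SPNCRNA.719 and SPNCRNA.1109, which were higher without Med20, and SPNCRNA.1307, SPNCRNA.1277 and SPNCRNA.1471, which were lower. They were chosen on the authors' deposited med20Δ values, 3 in each direction with the largest log2 fold change among SPNCRNA genes at an adjusted p under 0.05 and a mean of at least 50. They are 6 of 1503 genes with an SPNCRNA identifier and of 6888 genes in all. Because those values chose them, the difference between med20Δ and wild type is given below as a description with no test. All 6 are called there by the choice itself, where 2.37% of all genes are called, 1.12% higher and 1.25% lower, and nothing is read from that count.

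The study compared polyadenylated RNA from 4 strains with 3 samples each, grown in a rich medium at 30 degrees to log phase. Per the labels, wild type is h- (L972, L973 and L974 in the 3 descriptions), and med20Δ is h+ with leu1-32, ura4-D18 and med20:NAT. The ura4-D18 label of med20Δ is in doubt from its ura4 level, given with the other markers below. The rrp6Δ strain is h- with Leu1-32, His2, Ura4 DS/E, rrp6∆::KanMx6 and Otr1R(Sph1)::ura+. The double mutant carries med20:natMX and rrp6∆::KanMx6 with leu1-32 and ura4-D18, ura4-D19 or ura4-D20, and its mating type is not given. Mating type and marker alleles differ together with the deletions and cannot be told apart from them, and nothing says that a genotype was represented by more than 1 isolate.

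Med20 is a subunit of the head module of Mediator, the complex that links DNA-bound transcription factors to RNA polymerase II. Rrp6 belongs to the nuclear exosome and trims or degrades RNA from its 3′ end, including many non-coding transcripts. Antisense RNAs are transcribed from the strand opposite a gene and overlap it, and in fission yeast many of them are kept low by the exosome. Deleting rrp6 lets such RNAs accumulate, so the double mutant asks what loss of Med20 does when this route of decay is impaired.

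All 6 RNAs are annotated as antisense in the deposited tables, against 694 of the 1503 SPNCRNA genes (46.2%). Among SPNCRNA genes called in med20Δ, 25 of the 34 higher and 21 of the 33 lower are antisense, so this is not particular to the 6. The tables add for SPNCRNA.719 that it is a possible alternative UTR, and whether its counts belong in part to a neighbouring transcript was not tested. Their loci were taken from the RefSeq annotation of build ASM294v3 by identifier, since the sources used here do not give the authors' build. SPNCRNA.1273 lies at III:2212663-2214470 on the minus strand, 1808 bases long, with 95.9% of it opposite ski3, which encodes a subunit of the Ski complex of cytoplasmic RNA decay. SPNCRNA.719, at I:1181117-1182594 on the plus strand, lies opposite SPAC22A12.14c, a BSD domain protein gene, over 91.2% of its 1478 bases. It also overlaps the last 41 bases of mug84, a predicted pig-P subunit gene on its own strand. SPNCRNA.1109 is the shortest, 558 bases at III:112884-113441 on the plus strand, with 98.2% opposite mug135, a predicted cell surface glycoprotein gene.

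The 3 lower RNAs are also antisense to protein-coding genes. SPNCRNA.1307, at II:83799-85528 on the plus strand, is 1730 bases long and 99.4% opposite SPBPB10D8.02c, a predicted arylsulfatase gene. SPNCRNA.1277, at III:2243952-2245575 on the minus strand, is 1624 bases long and lies wholly opposite pep3, which encodes a HOPS/CORVET subunit of vacuolar membrane fusion. SPNCRNA.1471, at II:1871696-1873777 on the minus strand, is the longest at 2082 bases and covers all of pof9, an F-box protein gene. Its far end overlaps ser2, the phosphoserine phosphatase gene, by 54 bases, and its start lies 21 bases from that of SPBC3H7.05c, a predicted acyltransferase gene transcribed away from it.

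**Figure D1:**
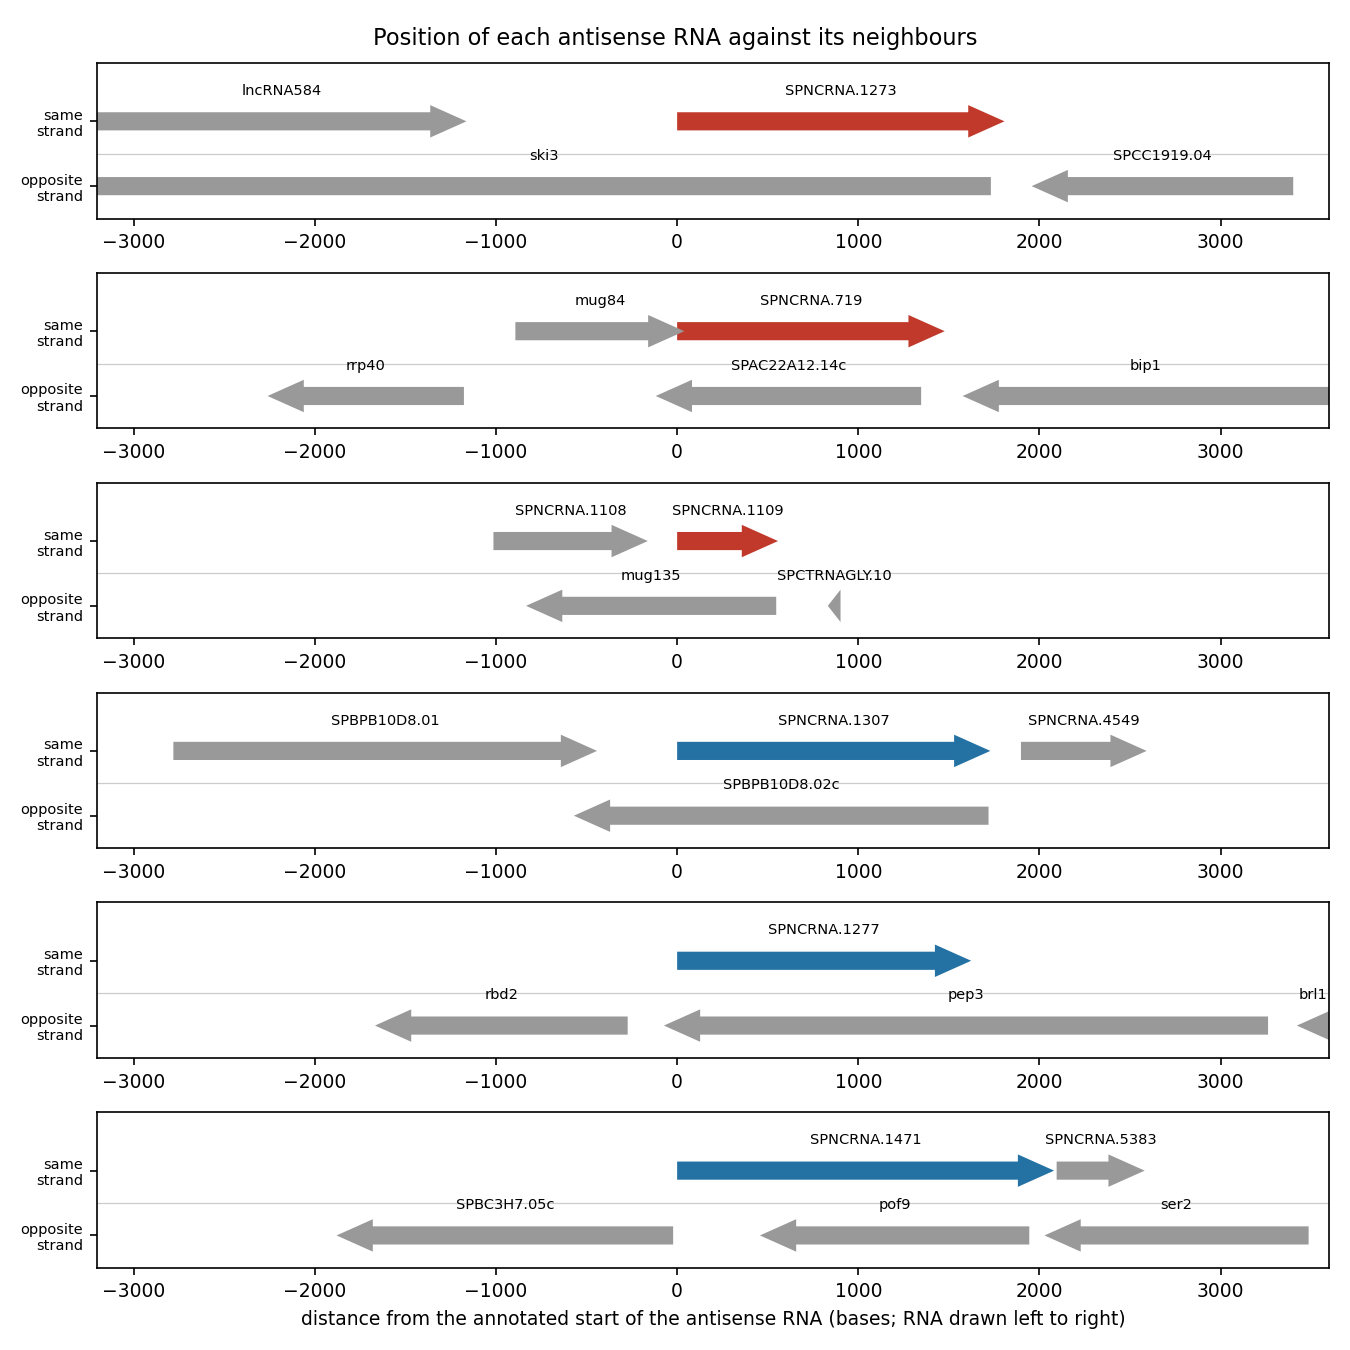
Maps of the 6 antisense RNAs, each drawn left to right from its annotated start (distance in bases on the horizontal axis), with annotated genes of the same strand above and of the opposite strand below. RNAs higher without Med20 are red, RNAs lower without it are blue, and each RNA lies opposite a protein-coding gene over 71.5% to 100% of its length.

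Sequence is shown, 5′ to 3′ on the strand of the RNA, for the RNA with the largest rise, the RNA with the largest fall, the RNA whose sequence is partly repeated, and the RNA that starts beside a divergent gene. All are RefSeq sequence of ASM294v3. For SPNCRNA.1273 (III:2214421-2214720, minus strand) and SPNCRNA.1307 (II:83767-84066, plus strand), capitals mark the first 50 bases of the RNA, both of which lie opposite coding sequence, of ski3 and of SPBPB10D8.02c. For SPNCRNA.1109 (III:112884-113183, plus strand), capitals mark bases in 36-base windows that occur more than once in the genome. For SPNCRNA.1471 (II:1873499-1873798, minus strand), capitals mark the 21 bases between its start and that of SPBC3H7.05c.
SPNCRNA.1273: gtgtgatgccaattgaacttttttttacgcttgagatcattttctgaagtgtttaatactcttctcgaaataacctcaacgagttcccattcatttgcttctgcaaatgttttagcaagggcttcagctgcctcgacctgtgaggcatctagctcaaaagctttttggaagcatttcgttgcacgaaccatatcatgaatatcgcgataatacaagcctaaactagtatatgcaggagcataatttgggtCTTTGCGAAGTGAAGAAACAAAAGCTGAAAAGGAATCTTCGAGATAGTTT
SPNCRNA.1307: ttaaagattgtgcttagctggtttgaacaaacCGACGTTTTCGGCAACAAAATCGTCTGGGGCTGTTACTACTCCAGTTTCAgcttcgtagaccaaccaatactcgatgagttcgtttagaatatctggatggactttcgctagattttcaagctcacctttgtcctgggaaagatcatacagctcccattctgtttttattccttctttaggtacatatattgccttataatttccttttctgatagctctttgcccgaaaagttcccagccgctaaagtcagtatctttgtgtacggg
SPNCRNA.1109: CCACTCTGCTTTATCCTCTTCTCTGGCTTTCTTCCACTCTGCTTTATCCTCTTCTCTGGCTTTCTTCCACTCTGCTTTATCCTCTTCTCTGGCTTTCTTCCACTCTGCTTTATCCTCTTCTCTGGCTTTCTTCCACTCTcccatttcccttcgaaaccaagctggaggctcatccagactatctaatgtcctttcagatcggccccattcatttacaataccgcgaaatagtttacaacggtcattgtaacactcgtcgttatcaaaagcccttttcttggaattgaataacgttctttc
SPNCRNA.1471: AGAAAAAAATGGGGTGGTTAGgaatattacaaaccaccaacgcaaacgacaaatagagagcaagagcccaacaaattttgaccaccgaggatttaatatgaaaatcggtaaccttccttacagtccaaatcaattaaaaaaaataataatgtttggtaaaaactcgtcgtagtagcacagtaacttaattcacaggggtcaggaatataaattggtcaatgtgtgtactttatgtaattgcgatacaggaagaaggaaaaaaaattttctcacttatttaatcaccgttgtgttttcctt

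The repeated stretch of SPNCRNA.1109 covers its first 139 bases and repeats with a period of 33 bases, within the coding sequence opposite. Of its 36-base windows, 19.9% occur more than once in the genome, against 0% for each of the other 5 RNAs. These windows occur at 104 positions within the RNA, at 29 positions just outside it within mug135 and at 0 positions elsewhere. A read from that stretch may thus have been placed at another repeat of the same locus, while no window had an exact copy in another gene. Copies with mismatches were not searched. The libraries were made with a kit that marks strand, but the sources used here do not give the strand setting of the counting. Reads of an antisense RNA and of the gene opposite it may therefore be mixed, a limit that holds for all 6.

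SPNCRNA.1273 was low in every wild-type library, with normalised counts of 32.4, 41.6 and 42.7. Its med20Δ libraries held 325, 425 and 210 and its rrp6Δ libraries 66.4, 59.0 and 80.5. The double mutant held 966, 2639 and 1762. No library of any strain reached into the range of another strain, and the order of the means was wild type, rrp6Δ, med20Δ and double mutant. The means were 38.9 ± 5.66, 68.6 ± 10.9, 320 ± 108 and 1789 ± 837 in that order (SD, n = 3 each). The authors' deposited table puts its level in med20Δ at 8.17-fold that of wild type.

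The wild-type libraries held 42.5, 21.4 and 19.4 normalised counts of SPNCRNA.719, and those of med20Δ 214, 343 and 104. In rrp6Δ it held 86.1, 152 and 73.8, and in the double mutant 179, 455 and 388. Wild type lay below all other libraries, while med20Δ overlapped both rrp6Δ and the double mutant. The means ran from 27.8 ± 12.8 in wild type through 104 ± 42.1 in rrp6Δ and 220 ± 120 in med20Δ to 341 ± 144 with both deletions (n = 3, SD). The fold of med20Δ over wild type in the authors' deposited table was 7.88.

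Normalised counts of SPNCRNA.1109 were 63.7, 39.4 and 62.1 in wild type, with 240, 681 and 384 in med20Δ. Its counts were 138, 65.6 and 141 in rrp6Δ and 253, 916 and 1226 in the double mutant. The lowest rrp6Δ library lay just above the highest wild-type one, and med20Δ overlapped the double mutant. The means were 55.1 ± 13.6 in wild type, 115 ± 42.6 in rrp6Δ, 435 ± 225 in med20Δ and 798 ± 497 in the double mutant (SD, n = 3 each), and the authors' deposited table gives 7.83-fold for med20Δ over wild type.

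Among the RNAs that were lower, SPNCRNA.1307 went furthest. It held 387, 279 and 239 in wild type and 7.31, 16.5 and 27.8 in med20Δ. In rrp6Δ it held 65.6, 272 and 85.2, and in the double mutant 2.45, 10.4 and 4.43. The rrp6Δ libraries were uneven, 1 of them lying within the wild-type range, and the double mutant overlapped med20Δ. The means were 302 ± 76.2 in wild type, 141 ± 114 in rrp6Δ, 17.2 ± 10.3 in med20Δ and 5.78 ± 4.16 in the double mutant (SD, n = 3 each), and the authors' deposited table puts med20Δ 17.7-fold below wild type.

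SPNCRNA.1277 was the lowest of these 3 in wild type, with normalised counts of 63.7, 120 and 133. It held 10.4, 8.86 and 20.2 in med20Δ, 101, 69.4 and 111 in rrp6Δ and 9.20, 29.6 and 31.9 in the double mutant. Libraries with Med20 all lay above those without it, while wild type overlapped rrp6Δ and med20Δ overlapped the double mutant. The means were 106 ± 37.0 and 93.7 ± 21.6 in wild type and rrp6Δ, and 13.2 ± 6.16 and 23.6 ± 12.5 in med20Δ and the double mutant (SD, n = 3 each). By the authors' deposited table med20Δ was 8.07-fold below wild type.

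SPNCRNA.1471 was even across wild type, at 504, 525 and 528. It held 76.3, 34.2 and 94.8 in med20Δ, 102, 225 and 137 in rrp6Δ and 19.6, 48.7 and 67.4 in the double mutant. Every mutant library lay below wild type, rrp6Δ lay above med20Δ, and med20Δ overlapped the double mutant. The means were 519 ± 13.1 in wild type, 155 ± 63.4 in rrp6Δ, 68.4 ± 31.1 in med20Δ and 45.2 ± 24.1 in the double mutant (SD, n = 3 each). The authors' deposited table puts med20Δ 7.61-fold below wild type.

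**Figure D2:**
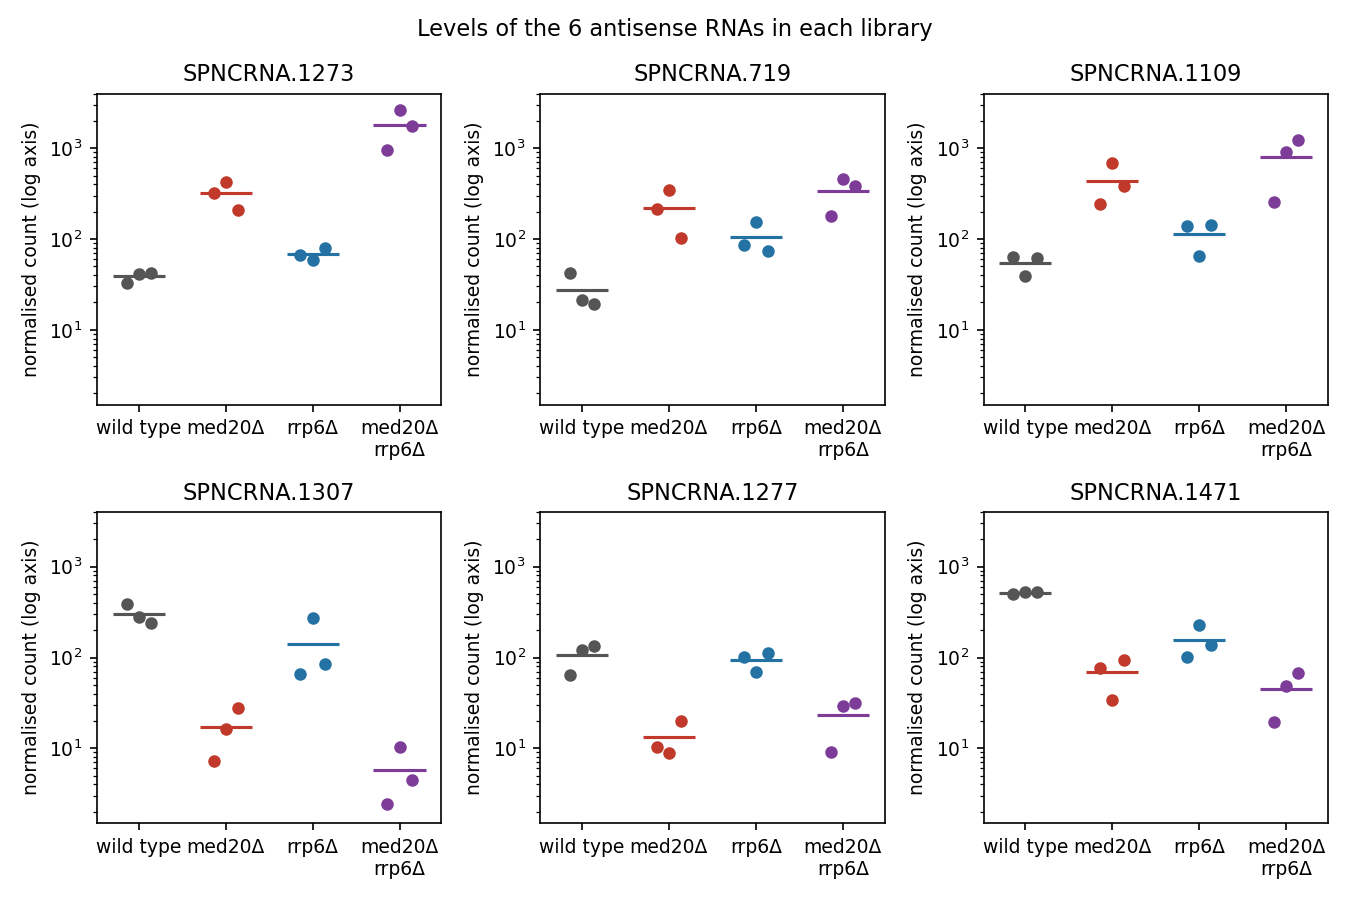
Normalised count of each antisense RNA in each of the 12 libraries (points, log axis) with the mean of each strain (line, n = 3). SPNCRNA.1273, SPNCRNA.719 and SPNCRNA.1109 (top) have their highest means in the double mutant, at 1789, 341 and 798, while SPNCRNA.1307 and SPNCRNA.1471 have their lowest there, at 5.78 and 45.2.

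Whether Med20 loss shifted these RNAs in the absence of Rrp6 was asked by comparing the double mutant with rrp6Δ, 6 libraries that took no part in choosing the RNAs. All 6 moved the same way as in med20Δ: SPNCRNA.1273, SPNCRNA.719 and SPNCRNA.1109 rose, and SPNCRNA.1307, SPNCRNA.1277 and SPNCRNA.1471 fell. All 6 passed limma at an adjusted p under 0.05 (Benjamini-Hochberg over 6207 genes), against 7.22% of all genes tested, 4.49% higher and 2.72% lower. For none of the 6 did the libraries of the 2 strains overlap. The share of all genes without overlap was not computed, so nothing is read from that count. The double mutant and rrp6Δ also differ in marker alleles, so the comparison is between the strains as labelled.

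SPNCRNA.1273 rose most, by 4.59 ± 0.34 on the log2 scale (limma, SE, adjusted p = 7.39e-05), or 26.1-fold between the means. SPNCRNA.1109 rose by 2.59 ± 0.53 (limma, adjusted p = 0.0173) and SPNCRNA.719 by 1.67 ± 0.39 (limma, adjusted p = 0.0314). The spread within the double mutant was wide for these RNAs, with coefficients of variation from 42.3% to 62.2%. Among those that fell, SPNCRNA.1307 fell by 4.32 ± 0.61 (limma, adjusted p = 0.00355), a 24.3-fold difference between means. SPNCRNA.1277 fell by 2.10 ± 0.47 (limma, adjusted p = 0.0254) and SPNCRNA.1471 by 1.85 ± 0.46 (limma, adjusted p = 0.0404).

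The calls for SPNCRNA.1273 and SPNCRNA.1307 held when any 1 of the 6 libraries was left out, with highest limma adjusted p-values of 0.00129 and 0.0184. The other 4 kept their direction but lost the call without some libraries. For SPNCRNA.719 the limma adjusted p was 0.104 and 0.119 without rrp6Δ 1 or 3, and 0.0506 and 0.105 without double mutant 2 or 3. For SPNCRNA.1109 it was 0.0679 without rrp6Δ 2 and 0.0672 without double mutant 3 (limma). For SPNCRNA.1277 it was 0.0907, 0.0524 and 0.0960 without rrp6Δ 1, 2 or 3 (limma). For SPNCRNA.1471 it was 0.0594, 0.124 and 0.101 without rrp6Δ 1, 2 or 3 and 0.0988 without double mutant 1 (limma). Fewer genes were called in all without rrp6Δ 1, 2 or 3 (237, 268 and 194, beside 448) or without double mutant 1 or 3 (212 and 268), and more, 705, without double mutant 2.

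The libraries farthest from the other 2 of their strain were rrp6Δ 2 and double mutant 2. Their root mean square log2 differences were 0.592, beside 0.439 and 0.425, and 0.693, beside 0.602 and 0.490. Some library is always the farthest, so neither is taken as an outlier. With both left out, 4 of the 6 RNAs passed limma and all 6 kept their direction, against 9.55% of genes tested. SPNCRNA.1109 and SPNCRNA.1471 were then at 2.0 and -1.67 (limma, adjusted p = 0.0872 and 0.0960).

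**Figure D3:**
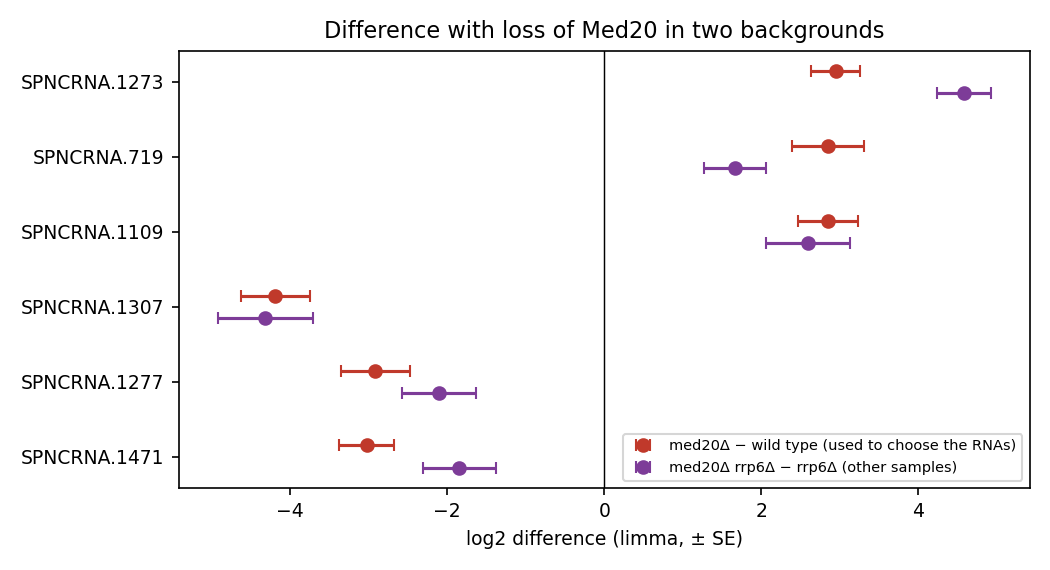
Log2 difference with loss of Med20 for each RNA (limma, bars are ± SE, n = 3 libraries a strain), against wild type (red) and in the absence of Rrp6 (purple). Each pair of points lies on the same side of 0, with SPNCRNA.1273 at 2.95 and 4.59 and SPNCRNA.1307 at -4.19 and -4.32.

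The sizes of the Med20 difference with and without Rrp6 can be set side by side, and the difference between them was not tested. The RNAs were chosen for extreme values in med20Δ, which by itself may place those values farther from 0. Nothing is therefore read from a smaller value in the absence of Rrp6. On the limma scale SPNCRNA.1273 was 2.95 ± 0.31 higher in med20Δ than in wild type, below its 4.59 in the absence of Rrp6. SPNCRNA.719 was 2.85 ± 0.46 higher in med20Δ (limma), above its 1.67 in the absence of Rrp6. The values for SPNCRNA.1109 (2.85 ± 0.38 in med20Δ) and SPNCRNA.1307 (-4.19 ± 0.44 in med20Δ) lay within 1 SE of those without Rrp6. SPNCRNA.1277 and SPNCRNA.1471 stood at -2.92 ± 0.44 and -3.03 ± 0.35 in med20Δ (limma), farther from 0 than without Rrp6.

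In rrp6Δ against wild type, 1 of the 6 RNAs was called higher and another lower. The authors' deposited table has SPNCRNA.719 rising 3.84-fold in rrp6Δ (DESeq, adjusted p = 0.0243) and SPNCRNA.1471 lower at log2 -1.71, a 3.27-fold difference (DESeq, adjusted p = 3.07e-05). That is 2 of 6, against 5.97% of all genes called in rrp6Δ, 4.97% higher and 1.00% lower. SPNCRNA.1109 and SPNCRNA.1273, by the authors' deposited table, stood at log2 1.10 and 0.86 (DESeq, adjusted p = 0.165 and 0.317). SPNCRNA.1307 and SPNCRNA.1277 stood at -1.06 and -0.14 in the authors' deposited table (DESeq, adjusted p = 0.293 and 0.992). The median SPNCRNA gene stood at 0.62 in rrp6Δ in the authors' deposited table, with 246 of 1503 called higher and 5 lower, and SPNCRNA.1471 is among those 5.

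The rrp6Δ comparison shares its wild-type libraries with the values that chose the 6 RNAs. That choice favours low wild-type values for the higher RNAs and high ones for the lower RNAs. By itself it may thus move the rrp6Δ differences in the directions called. In limma SPNCRNA.719 rose in rrp6Δ with all libraries (adjusted p = 0.0258) and was not called without wild type 2 or 3 (0.0753 and 0.0903) or without rrp6Δ 1, 2 or 3 (0.0940, 0.0808 and 0.060). SPNCRNA.1307 passed limma at -1.94 without rrp6Δ 2, its high library (adjusted p = 0.0156). With rrp6Δ 2 and wild type 1 left out, SPNCRNA.1307 and SPNCRNA.1109 passed limma at -1.75 and 1.5 (adjusted p = 0.00698 and 0.0248).

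In the double mutant all 6 RNAs differed from wild type in the direction seen in med20Δ, against 15.3% of all genes called, 8.59% higher and 6.71% lower. The wild-type libraries are again those that chose the RNAs. This may by itself place the folds below farther from 0 and make their p-values smaller. The share of all genes is therefore no fair measure for the count of 6. By the authors' deposited table SPNCRNA.1273 was 46.5-fold higher (DESeq, adjusted p = 4.6e-07), SPNCRNA.1109 14.6-fold (adjusted p = 0.00869) and SPNCRNA.719 12.4-fold (adjusted p = 6.73e-05). SPNCRNA.1307 was 51.6-fold lower in the authors' deposited table (DESeq, adjusted p = 3.55e-23), SPNCRNA.1471 11.4-fold (adjusted p = 3.55e-14) and SPNCRNA.1277 4.44-fold (adjusted p = 0.00116). By limma SPNCRNA.1277 was not called without wild type 3 (-2.04, adjusted p = 0.0593).

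The product of the 2 single-mutant folds in the authors' deposited tables gives a scale for these values, as a description. Its med20Δ folds chose the RNAs and may be too large for that reason, and the wild-type libraries enter both folds. Nothing is therefore read from a product above the observed fold. For SPNCRNA.1273 that product is 14.8-fold higher, below the 46.5-fold of the double mutant. For SPNCRNA.719 it is 30.3-fold higher, above the 12.4-fold observed, and for SPNCRNA.1109 it is 16.8-fold, beside 14.6-fold. Among the lower RNAs the product is 37.0-fold for SPNCRNA.1307, beside 51.6-fold. It is 8.87-fold for SPNCRNA.1277 and 24.9-fold for SPNCRNA.1471, both above the observed 4.44- and 11.4-fold. SPNCRNA.1273 is thus the RNA whose double mutant exceeded the product most, and its level in the double mutant was 2.43 ± 0.38 above med20Δ on the log2 scale (limma, SE). For the other 5 the limma difference between the double mutant and med20Δ was 0.69 ± 0.47 (SPNCRNA.719), 0.73 ± 0.56 (SPNCRNA.1109), -1.43 ± 0.67 (SPNCRNA.1307), 0.71 ± 0.57 (SPNCRNA.1277) and -0.62 ± 0.52 (SPNCRNA.1471), each between strains whose libraries overlapped.

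Of the genes opposite the RNAs over most of their length, ski3, pep3 and pof9 were not called in any of the 4 comparisons (DESeq and limma, adjusted p from 0.271 to 1). The level of ski3 was 408 ± 96.9 in wild type, 451 ± 41.8 in med20Δ, 506 ± 199 in rrp6Δ and 594 ± 125 with both deletions (normalised counts, n = 3, SD), while SPNCRNA.1273 went from 38.9 to 1789. Per kilobase, SPNCRNA.1273 stood at 0.310 times the level of ski3 in wild type and 9.78 times in the double mutant. SPNCRNA.1277 stood at 0.351 times the per-kilobase level of pep3 in wild type and 0.0403 times in med20Δ, and pep3 itself was at 618 ± 84.0 and 672 ± 158. SPNCRNA.1471 went from 1.60 times the per-kilobase level of pof9 in wild type to 0.236 times in med20Δ, with pof9 at 231 ± 53.8 and 207 ± 13.5. In wild type the median ratio of such a per-kilobase level was 0.135 over 270 antisense RNAs that lie at least 90% within an opposite gene. The deposited log2 fold changes of these 3 genes lay between -0.57 and 0.56 in the authors' deposited tables.

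The other 3 genes, SPBPB10D8.02c, SPAC22A12.14c and mug135, were each called in at least 1 comparison, in the direction of their antisense RNA. The share of all genes called in at least 1 comparison was not computed, so nothing is read from that count. Comparisons with wild type also share libraries with the choice of the RNAs. The arylsulfatase gene SPBPB10D8.02c, opposite SPNCRNA.1307, went from 319 ± 26.0 in wild type to 43.4 ± 11.4 in med20Δ, 113 ± 33.1 in rrp6Δ and 9.48 ± 6.38 with both deletions (n = 3, SD). It fell in all 3 mutants in the authors' deposited tables, at log2 -2.89, -1.46 and -5.06 (DESeq, adjusted p = 7.94e-11, 0.00118 and 3.32e-21). Against rrp6Δ it fell by 3.58 ± 0.46 in the double mutant (limma, adjusted p = 0.0023). SPBPB10D8.01, a predicted cysteine transporter gene, lies before SPNCRNA.1307 on the same strand with 441 bases between them and does not overlap it. It fell as well, at -2.97, -1.10 and -3.84 in the authors' deposited tables (DESeq, adjusted p = 1.05e-10, 0.023 and 1.06e-16) and it fell by 2.83 ± 0.45 in the double mutant against rrp6Δ (limma, adjusted p = 0.00528). Further on, SPBPB10D8.04c, the next gene of the tables after SPNCRNA.1307 with 5847 bases between, has values of -1.04 (med20Δ) and 0.03 (double mutant) in the authors' deposited tables (DESeq, adjusted p = 0.0388 and 0.999).

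SPAC22A12.14c, opposite SPNCRNA.719, went from 178 ± 20.8 in wild type to 395 ± 97.4 in med20Δ, 199 ± 23.2 in rrp6Δ and 436 ± 31.6 with both deletions (n = 3, SD). It rose 2.20-fold in med20Δ and 2.48-fold with both deletions by the authors' deposited tables (DESeq, adjusted p = 0.041 and 0.00983). It rose by 1.14 ± 0.22 in the double mutant against rrp6Δ (limma, adjusted p = 0.0144). In rrp6Δ, where SPNCRNA.719 rose, it stood at log2 0.20 by the authors' deposited table (DESeq, adjusted p = 0.92). The level of mug135 was 58.6 ± 23.4 in wild type, 131 ± 13.2 in med20Δ, 64.5 ± 15.6 in rrp6Δ and 170 ± 64.6 in the double mutant. By the authors' deposited tables mug135 rose 2.95-fold in the double mutant (DESeq, adjusted p = 0.0269) and stood at 2.23-fold in med20Δ and 1.13-fold in rrp6Δ (DESeq, adjusted p = 0.112 and 0.964). In the double mutant against rrp6Δ mug135 stood at 1.34 ± 0.37 (limma, adjusted p = 0.0562), which did not pass the test. For these 3 pairs the part of shared or misassigned reads was not tested.

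**Figure D4:**
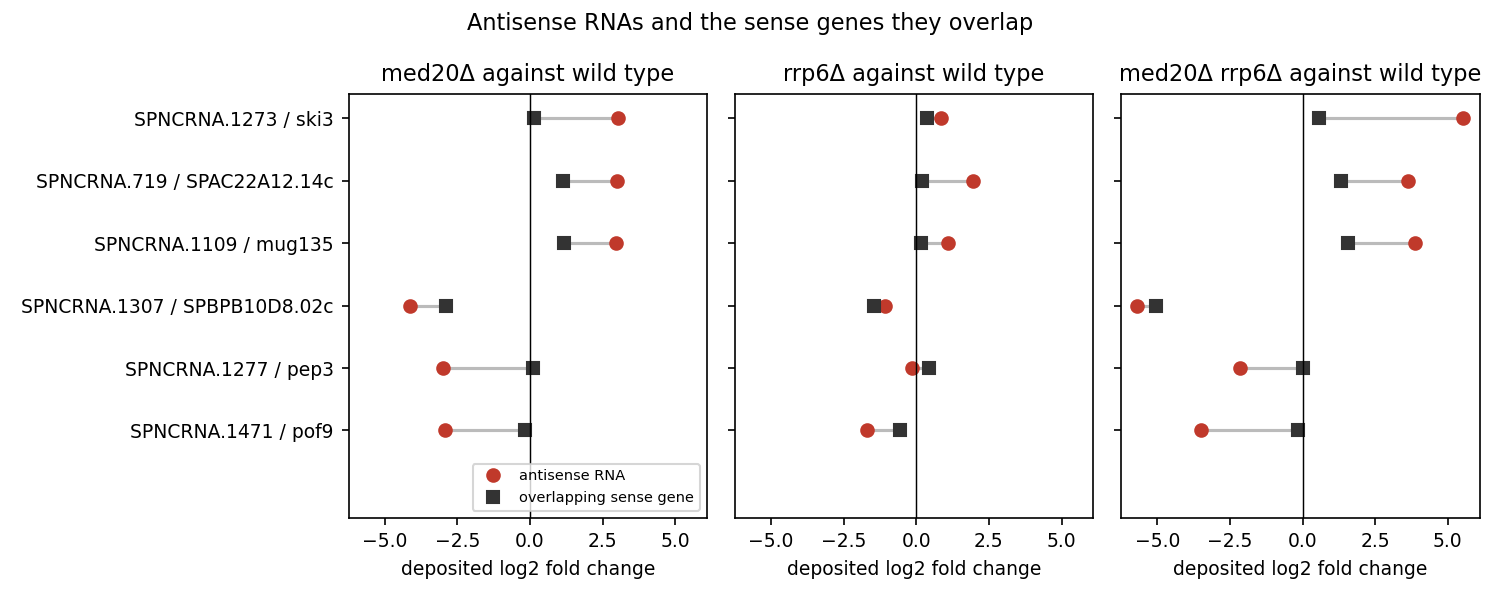
Deposited log2 fold change against wild type of each antisense RNA (red circles) and of the protein-coding gene opposite it (black squares), joined by a line, in the 3 mutants. The squares of ski3, pep3 and pof9 stay between -0.57 and 0.56, and SPBPB10D8.02c lies beside SPNCRNA.1307, at -5.06 in the double mutant.

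Of the genes that flank the RNAs or overlap only an end of them, some were called and some not. SPBC3H7.05c, whose start faces away from that of SPNCRNA.1471, fell with med20 deleted alone or with rrp6, at -1.34 and -1.20 by the authors' deposited tables (DESeq, adjusted p = 0.00877 and 0.0092), and stood at -1.08 in rrp6Δ (DESeq, adjusted p = 0.132). It stood at -0.03 ± 0.38 in the double mutant against rrp6Δ (limma, adjusted p = 0.976), where SPNCRNA.1471 fell. The gene ser2 fell in both strains without Rrp6, at -1.52 in each by the authors' deposited tables (DESeq, adjusted p = 0.000138 and 0.00122), and stood at -0.46 in med20Δ (DESeq, adjusted p = 0.715). The rhomboid protease gene rbd2 starts 272 bases from SPNCRNA.1277 in the other direction, fell 2.20-fold in rrp6Δ in the authors' deposited table (DESeq, adjusted p = 0.0154) and stood at log2 1.08 in med20Δ (DESeq, adjusted p = 0.21). SPNCRNA.1470, the next listed RNA beyond SPNCRNA.1471 on its strand, rose by 3.12 ± 0.47 in the double mutant against rrp6Δ (limma, adjusted p = 0.00448), opposite in direction to SPNCRNA.1471. The antisense RNA lncRNA584, also opposite ski3, rose 6.03-fold in rrp6Δ and 20.6-fold with both deletions by the authors' deposited tables (DESeq, adjusted p = 0.00998 and 0.00992). Its wild-type means there were 3.68 and 3.98, near the lowest possible value, so these folds are imprecise. In the double mutant against rrp6Δ it stood at 1.55 ± 0.47 (limma, adjusted p = 0.0787), which did not pass the test. The tRNA gene after SPNCRNA.1109 was at the lowest possible value, a count of 1, in every library but 1 of the double mutant, which held 2. The genes mug84 (which overlaps SPNCRNA.719 by 41 bases), rrp40, bip1, brl1, SPCC1919.04 and SPNCRNA.1108 were not called in any comparison made for them.

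The RNAs just outside the choice lay close to those inside it. On the higher side the next RNAs were SPNCRNA.687 and SPNCRNA.1020, both antisense, at log2 2.71 and 2.48 in the authors' deposited table, after SPNCRNA.1109 at 2.97. On the lower side they were SPNCRNA.1278, annotated as intergenic, and SPNCRNA.1397 at -2.61 and -2.52 in the authors' deposited table, after SPNCRNA.1471 at -2.93. Beyond the least changed of the 6, the authors' deposited table holds 5 further SPNCRNA genes on the higher side and 2 on the lower side, all with a mean under 50.

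The other SPNCRNA genes called in med20Δ with a mean of at least 50 numbered 39, 22 higher and 17 lower. In the double mutant against rrp6Δ, 21 of the 22 and 15 of the 17 had the same direction as in med20Δ, and 12 and 13 of them were called by limma, again beside 4.49% and 2.72% of all genes. Their median limma log2 differences were 1.09 and -1.30, and all genes had a median of -0.02. The 3 higher RNAs described here, at 1.67 to 4.59, lay above that median, and the 3 lower ones, at -4.32 to -1.85, below it. The largest rise of the 22 was 3.35, under that of SPNCRNA.1273, and the largest fall of the 17 was -3.54, short of SPNCRNA.1307. The remaining RNAs of the 6 were not set apart in this comparison. SPNCRNA.1020 (3.35) rose more than SPNCRNA.1109 and SPNCRNA.719, and SPNCRNA.687 (2.59) more than SPNCRNA.719. Falls of -3.54 and -2.31 among the 17 exceeded those of SPNCRNA.1277 and SPNCRNA.1471.

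**Figure D5:**
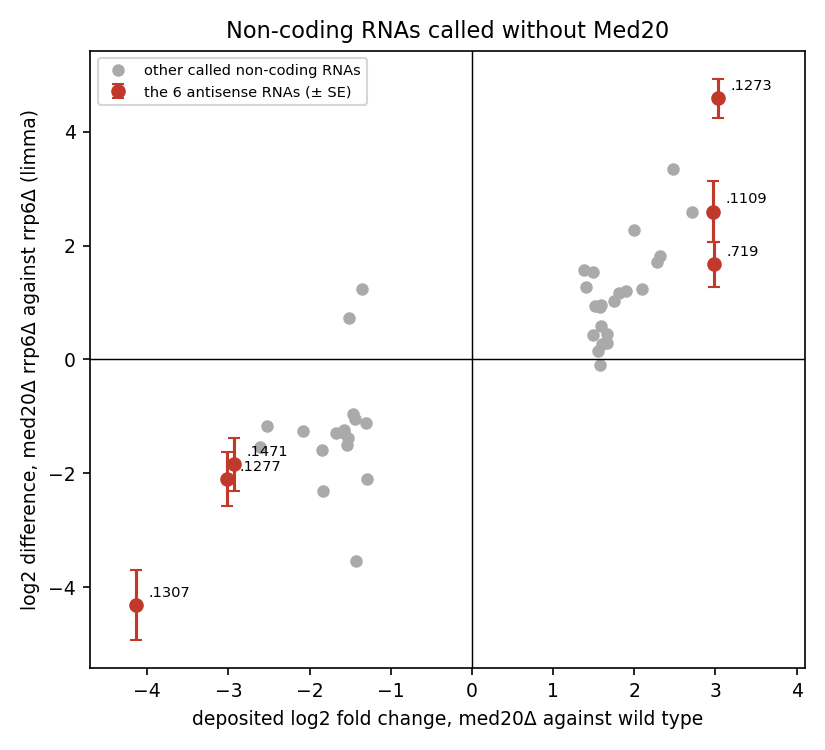
Log2 fold change in med20Δ against wild type (authors' deposited values, horizontal) and limma log2 difference of the double mutant from rrp6Δ (vertical) for 45 SPNCRNA genes called in med20Δ with a mean of at least 50. The 6 antisense RNAs (red, ± SE, with identifiers shortened) hold the ends of the horizontal axis because they were chosen on it, and they lie between -4.32 and 4.59 on the vertical axis.

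Genes with the most similar pattern were sought by the Euclidean distance between deposited log2 fold changes in the 3 mutants, over 5452 genes whose mean was 50 or more. Since the mutants share wild-type libraries, these values are a description. Nearest to SPNCRNA.1273 were eno102, a predicted enolase gene (distance 0.651), the tRNA gene SPBTRNAASN.01 (1.12) and the metallothionein gene zym1 (1.47). By the authors' deposited tables eno102 was called in the double mutant but not in med20Δ or rrp6Δ (DESeq, adjusted p = 1.14e-05, 0.257 and 0.869). SPNCRNA.719 was nearest to SPNCRNA.687 (0.636), SPNCRNA.1656 (0.736) and SPNCRNA.1109 (0.874), all antisense RNAs. SPNCRNA.1109 was nearest to SPNCRNA.687 (0.744), SPNCRNA.1020 (0.786) and the tspO homologue gene tsp0 (0.844).

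Of the 3 genes nearest to SPNCRNA.1307, 2 came from its own locus, SPBPB10D8.02c (distance 1.46) and SPBPB10D8.01 (2.19), and the other was the sequence orphan SPBPB7E8.01 (1.53). SPNCRNA.1471 was nearest to SPBPB10D8.01 (0.691), the septum endoglucanase gene eng1 (0.931) and cbm1, a gene with a fungal cellulose binding domain (1.18). SPNCRNA.1277 was nearest to wwm3, a WW domain gene (0.757), SPNCRNA.1397 (0.766) and SPNCRNA.1278 (0.779). By the authors' deposited tables wwm3 was not called in med20Δ, rrp6Δ or the double mutant (DESeq, adjusted p = 0.445, 0.915 and 0.393). No gene lay as near to SPNCRNA.1307 as the nearest gene of each other RNA, whose nearest distances ran from 0.636 to 0.757.

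The promoter windows, 250 bases before to 50 after each annotated start, were searched on both strands. TATAAA was present in 2 of 6, SPNCRNA.719 and SPNCRNA.1307, beginning 43 and 212 bases before the start on the reverse strand, against 43.3% of 1400 SPNCRNA windows. CCAAT was present in 2 of 6, SPNCRNA.1273 and SPNCRNA.1277, against 42.2%. TGACGT (the Atf1/Pcr1 site), CCAATCA (which contains CCAAT), CAGTCACA (HomolD) and ACGCGT (MCB) were present in 0 of 6, and in 7.57%, 2.64%, 2.0% and 2.07% of SPNCRNA windows. TNAAAC, the core hexamer bound by Mmi1, a protein that delivers RNAs to the exosome, occurred on the sense strand 4, 2, 0, 2, 3 and 1 times in SPNCRNA.1273, SPNCRNA.719, SPNCRNA.1109, SPNCRNA.1307, SPNCRNA.1277 and SPNCRNA.1471. At least 1 match lay in 82.5% of 1400 SPNCRNA genes, with a median of 1.89 per kilobase, and the 6 RNAs held from 0 to 2.21 per kilobase.

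The strain labels were checked against the deleted genes and markers. By the authors' deposited tables the mean of med20 was 4.27 in med20Δ and 25.9 with both deletions, against 604 and 734 in wild type, and rrp6 of 1.51 and 1.26 in the strains lacking it, against 1549 and 1675. The marker ura4 was at 3.39 in the double mutant but at 2073 in the libraries labelled med20Δ and ura4-D18, beside 1945 in wild type, in the authors' deposited tables. It was at 1284 in rrp6Δ there, and it fell by 8.41 ± 0.35 in the double mutant against rrp6Δ (limma, adjusted p = 8.33e-07). Strains labelled ura4-D18 thus differ in ura4, and the med20Δ label is in doubt at this gene. The reason was not tested. The marker his2 was at 0.445-fold in the double mutant by the authors' deposited table (DESeq, adjusted p = 0.00988), and leu1 was not called in any mutant. SPNCRNA.1109 ends 2147 bases before ura4, so its rise in the double mutant lies beside a gene with hardly a count there, whose part in it was not tested. Of 23 Mediator genes, med20 in both of its deletions and med18, lower in rrp6Δ and the double mutant (-1.24 and -1.22, DESeq, adjusted p = 0.00588 and 0.0174), were called in the authors' deposited tables. Of 26 exosome and cofactor genes, beside rrp6, the authors' deposited tables call red1 higher in rrp6Δ (1.00, DESeq, adjusted p = 0.0301) and mtr4 and dis3 lower in the double mutant (-1.12 and -1.17, DESeq, adjusted p = 0.0162 and 0.0123). In the double mutant against rrp6Δ limma also called mtr4 and dis3 lower (-1.03 and -0.94, adjusted p = 0.0353 and 0.0453). By the authors' deposited tables mfm2 (rrp6Δ) and mam4 (double mutant) of 7 M-cell genes were lower, and none of 4 P-cell genes was called. In the double mutant against rrp6Δ the M-cell gene mfm1 rose by 1.92 (limma, adjusted p = 0.0358), and limma called none of the 4 P-cell genes. Median log2 fold changes in med20Δ, rrp6Δ and the double mutant were -0.10, -0.10 and -0.14 for the Mediator list and -0.20, -0.06 and -0.25 for the exosome list. They were -0.29, -0.62 and -0.43 for the M-cell list and -0.38, -0.31 and -0.06 for the P-cell list. Over all genes of the authors' deposited tables they were -0.003, -0.04 and -0.03. The 12 libraries held 6589639 to 10297701 counts in the genes recovered. These are bulk cultures, in which fewer cells with an RNA and less RNA per cell cannot be told apart.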

How the data were processed

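The authors deposited 3 comparison tables, 1 per mutant against wild type. Per the file headers, they hold the authors' mean normalised signal of each strain (counts divided by size factors, averaged), the fold change as a ratio of means, its log2 value, and p-values with adjusted p-values, all made by the authors. Per the submitters' processing notes, Bowtie 0.12.7 and DESeq were used, and the sources used here give no DESeq version, genome build, annotation or counting program. Per the labels' protocols, oligo(dT) beads enriched polyadenylated RNA and dUTP marked the second strand, so RNA without a tail is under-represented.

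The means carry 15 significant digits, so the 3 whole counts behind each could be solved. Of 6888 genes, 6599 were split in all 12 libraries, 19653 wild-type splits compared between tables differed in 0 cases, and simulated means gave 0 wrong splits. Unsolved means began at 10003, above every RNA described. The lowest recovered count was 1 in every library, so a true 0 may stand as 1. Libraries are numbered by recovered step, unrelated to the labels' letters. Levels are counts divided by median-of-ratios size factors over 12 libraries.

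Mutants against wild type use the authors' deposited DESeq values. The double mutant against each single mutant used limma (version 3.58.1, R 4.3.3; trend option on) for log2(value + 1) of the 6 libraries concerned, for genes averaging at least 10, with Benjamini-Hochberg adjustment. Fold changes on that scale understate those of low genes. On data simulated for the double mutant against rrp6Δ, with 6221 genes, limma called 100% of 4-fold changes, 66.0% of 2-fold increases, 71.4% of 2-fold decreases and 7 of 6025 unchanged genes. The simulation gave every gene the same dispersion, 0.0494. The 6 RNAs had coefficients of variation of 42.3% to 72.1% in the double mutant, so these rates may not hold for them. The series names biological replicates but nothing says that they were separate cultures, so p-values reflect the spread among these samples, which may be technical. Coordinates and sequences are RefSeq ASM294v3, matched by identifier for 6769 of 6888 genes.

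The 6 RNAs and the lists were chosen with earlier results of these data known. Other genes were named by position beside the RNAs, by the 3 nearest patterns to each RNA, as the 2 next in order on each side of the choice, as deleted or marker genes, or as called members of the Mediator and exosome lists. SPBPB10D8.04c and SPNCRNA.1470, the nearest neighbours present in the tables, were added after the annotation was seen. Alternatives were other pseudocounts (0.5 and 5), no filter, upper-quartile scaling, 1 model of 12 libraries, re-centring on the median protein-coding gene, a threshold of 0.01, and leaving out each library. A further promoter motif that was searched is not reported here.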

Additional observations from a re-analysis of the deposited data

How the results depend on the processing

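In med20Δ against wild type, all 72 values of the 6 RNAs kept their direction under the alternatives run. That comparison chose the RNAs, so nothing is read from its count. All 72 in the double mutant against wild type kept their direction as well, with wild-type libraries that took part in the choice. In the double mutant against rrp6Δ, 78 of 78 did. In rrp6Δ against wild type 69 of 72 did, the exceptions being SPNCRNA.1277, which was not called (its values without 1 library ran from -0.44 to 0.10). Other pseudocounts, no filter, upper-quartile scaling and 1 model of 12 libraries kept all 6 calls in the double mutant against rrp6Δ, with 411 to 502 genes called beside 448. Leaving out 1 library gave 194 to 705 called genes there. With 1 library left out, the ranges over the 6 fits were 1.41 to 2.08 for SPNCRNA.719, 2.15 to 3.28 for SPNCRNA.1109, -2.40 to -1.55 for SPNCRNA.1277 and -2.20 to -1.34 for SPNCRNA.1471 in the double mutant against rrp6Δ. They were 1.60 to 2.24 for SPNCRNA.719 and -1.94 to -0.92 for SPNCRNA.1307 in rrp6Δ against wild type, and -2.55 to -1.68 for SPNCRNA.1277 in the double mutant against wild type. The farthest library of each strain was also left out, an alternative chosen after seeing the data. SPNCRNA.1109 was then 2.0 and SPNCRNA.1471 -1.67 in the double mutant against rrp6Δ (no longer called). In rrp6Δ against wild type SPNCRNA.1109 was then 1.5 and SPNCRNA.1307 -1.75 (now called). The cause of these changes was not tested. At an adjusted p under 0.01 the authors' deposited tables call 85, 265 and 601 genes in med20Δ, rrp6Δ and the double mutant, beside 163, 411 and 1051. Recovered counts of 4 to 22 per library for SPNCRNA.1307 in strains without Med20 limit the precision of its fold. No paired analysis was possible because the deposited values carry no replicate letters and recovered libraries cannot be matched to them.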
